A study of Homo sapiens with 6 samples.

Results

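The 8 genes described here are SREBF2, which encodes the transcription factor SREBP2, and INSIG1, HMGCS1, SQLE, IDI1, FDFT1, LSS and DHCR7, which belong to the cholesterol synthesis programme that SREBP2 drives. They were selected by gene symbol from the 29982 symbols of the deposited expression table, and all 8 were measured. RNA was sequenced from OVCAR5 cells, an established ovarian cancer line, exposed to the vehicle DMSO or to 10 μM SpiD7, a dimer of a spirocyclic compound that carries a pair of covalent modifiers. There were 2 DMSO libraries with no duration in the sample labels, 2 libraries of cells treated with SpiD7 for 2 h, 1 for 6 h and 1 for 12 h. The comparisons address how expression changed with time of exposure to the compound. The same 2 DMSO libraries served as reference for every time, so that exposure and time in culture cannot be told apart. The labels do not say whether the libraries of a group came from separate cultures, so that p-values measure only the spread between these libraries, which may be technical.

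Expression was given as FPKM, fragments relative to transcript length and to the fragments mapped in the library. Without counts in the table, total depth is unknown. Relative to the first DMSO library, depth was estimated at 0.769 to 1.11 in the other 5 libraries. The estimate is the most common ratio among low values, shared by 424 to 543 rows of 3675 to 3886 per library. For a second library it also rests on the recovery described next. Both columns whose names give replicate 2, one for DMSO and one for 2 h, behaved as means of the 2 libraries of a group, and replicate 2 was recovered from them by subtraction. All values given below for a second library rest on that reading. The recovered libraries stood apart from the first ones, with MIR6723 taking 25.0% and 21.8% of their FPKM total, against 5.04% to 9.19% in the other 4 libraries. All 6 epithelial markers were present, with EPCAM at 77.4 to 86.5 FPKM, whereas of the 4 ovarian lineage markers only PAX8 reached a mean of 1 FPKM, at 1.64 to 2.12, and WT1, MUC16 and ESR1 were at most 0.686 FPKM in any library. Of the epithelial markers, KRT7 was the highest at 12 h relative to the DMSO mean, with 304 and 215 FPKM in DMSO and 491 FPKM at 12 h, and CDH1 the lowest, with 11.4 and 19.2 FPKM against 12.8 FPKM. Summed FPKM of 7 markers of leukocytes, fibroblasts and endothelium was 50.4 and 41.1 in the recovered DMSO and 2 h libraries and 24.5 to 29.9 in the other 4. PTPRC, COL1A2, DCN and VWF were at most 0.126 FPKM throughout, COL1A1 was at 0.596 to 2.18 FPKM, and CD68, the largest part of each sum, was at 37.3 and 31.3 FPKM in the recovered libraries and 22.7 to 27.1 in the others, while PECAM1 was at 10.7 and 7.74 FPKM in the recovered libraries and at 0.320 to 0.962 in the others.

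SREBP2 is made as a precursor in the membrane of the endoplasmic reticulum, where it is bound by the escort protein SCAP. When sterols are abundant, INSIG proteins hold the SCAP complex in place, and when sterols fall, the complex moves to the Golgi, where proteases release the part of SREBP2 that enters the nucleus. There it activates genes of the mevalonate and sterol pathway, of lipoprotein uptake, and SREBF2 and INSIG1 themselves, so that transcripts of these genes are commonly followed as a readout of the pathway. RNA levels alone do not show cleavage of the protein.

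The deposited gene-level loci, on hg38, counted from 1 and overlapping the GENCODE gene of the same name, were chr22:41833079-41907308 for SREBF2, chr7:155297776-155310235 for INSIG1, chr5:43287470-43313512 for HMGCS1 and chr10:1018907-1049121 for IDI1. That of LSS was chr21:46184817-46228824 and that of DHCR7 was chr11:71434411-71448431. LSS has another row on an alternate contig, listed at 0 in every column, which was summed with the first. Values are per gene, so that exons and isoforms are not resolved.

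RefSeq promoter windows (GRCh38.p14, 250 bases before to 50 after a gene start, 300 in all) were matched by symbol for 6 of the 8 genes, SREBF2, INSIG1, HMGCS1, IDI1, LSS and DHCR7, using for each gene the window nearest to the start of its deposited locus. The windows of SREBF2 and of the 3 genes that exceeded the first DMSO library more than 2-fold at 6 h and 12 h are shown because these are the members on which the comparisons below turn. They are chr22:41832855-41833154 on the plus strand for SREBF2, chr7:155297628-155297927 on the plus strand for INSIG1, chr5:43313363-43313662 on the minus strand for HMGCS1 and chr10:1049070-1049369 on the minus strand for IDI1. Capitals mark the sterol element letters TCACNCCAC and the NF-Y box CCAAT, each searched on both strands, so that CCAAT on the opposite strand reads ATTGG.
SREBF2: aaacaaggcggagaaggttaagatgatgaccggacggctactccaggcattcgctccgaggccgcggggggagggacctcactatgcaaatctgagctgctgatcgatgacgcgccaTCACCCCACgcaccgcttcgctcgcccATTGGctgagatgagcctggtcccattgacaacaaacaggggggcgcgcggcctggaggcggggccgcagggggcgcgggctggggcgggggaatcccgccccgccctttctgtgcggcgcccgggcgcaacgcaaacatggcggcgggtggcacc
INSIG1: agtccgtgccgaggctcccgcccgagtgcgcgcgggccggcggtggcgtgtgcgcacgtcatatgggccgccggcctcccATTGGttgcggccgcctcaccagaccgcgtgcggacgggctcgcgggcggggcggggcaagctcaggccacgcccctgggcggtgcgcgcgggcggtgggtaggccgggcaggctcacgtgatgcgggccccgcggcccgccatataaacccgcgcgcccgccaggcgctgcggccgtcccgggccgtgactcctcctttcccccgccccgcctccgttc
HMGCS1: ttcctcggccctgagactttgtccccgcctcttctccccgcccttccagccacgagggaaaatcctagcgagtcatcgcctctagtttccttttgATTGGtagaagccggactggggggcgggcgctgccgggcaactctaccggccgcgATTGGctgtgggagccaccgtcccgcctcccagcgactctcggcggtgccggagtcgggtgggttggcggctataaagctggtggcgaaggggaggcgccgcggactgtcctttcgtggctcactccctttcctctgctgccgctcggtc
IDI1: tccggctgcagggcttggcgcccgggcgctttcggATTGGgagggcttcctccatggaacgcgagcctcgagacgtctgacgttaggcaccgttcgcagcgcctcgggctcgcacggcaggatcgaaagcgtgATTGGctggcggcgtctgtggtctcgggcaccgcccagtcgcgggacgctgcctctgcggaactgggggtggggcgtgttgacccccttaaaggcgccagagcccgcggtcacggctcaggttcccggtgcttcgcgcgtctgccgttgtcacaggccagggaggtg

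The letters TCACNCCAC were found in 1 of the 6 windows, that of SREBF2, where they start 133 bases before the gene start. They occur in 1.13% of the 35116 promoters of the same length. The overlapping letters CACCCCAC were found in the same place in SREBF2, in no other of the 6 windows and in 2.79% of all promoters. CCAAT was present in 6 of 6 windows against 34.6% of all promoters, and the Sp1 letters GGGCGG in 6 of 6 against 45%. HMGCS1 and IDI1, as printed above, each carry CCAAT at 2 positions on the opposite strand. A match of letters is a description of the window and not a measured binding site.

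HMGCS1 encodes the cytosolic synthase that makes HMG-CoA at the start of the mevalonate pathway. It was at 15.1 FPKM in the first DMSO library and 27.9 FPKM in recovered DMSO replicate 2, and at 31.7 and 47.9 FPKM in the corresponding 2 h libraries. At 6 h it stood at 64.4 FPKM and at 12 h at 116 FPKM. Every SpiD7 library was thus above both DMSO libraries, each later time was above all libraries of the time before, and the groups did not overlap. That order was found in 2.46% of the 13287 genes tested. At 12 h the level was 7.71 times that of the first DMSO library and 4.16 times that of replicate 2. On the log2(FPKM + 0.1) scale, used for all differences below, these were differences of 2.94 and 2.05, and at 6 h the differences were 2.09 and 1.20. Of the 8 genes, HMGCS1 alone passed 2-fold against both DMSO libraries at either time, beside 3.21% of the 13287 genes tested at 6 h and 3.88% at 12 h. Ranked by the smaller of its differences from the DMSO libraries at 12 h, it was number 164 of these 13287 genes. There was 1 library at each of these times, so that the differences have no replicate check.

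**Figure D1:**
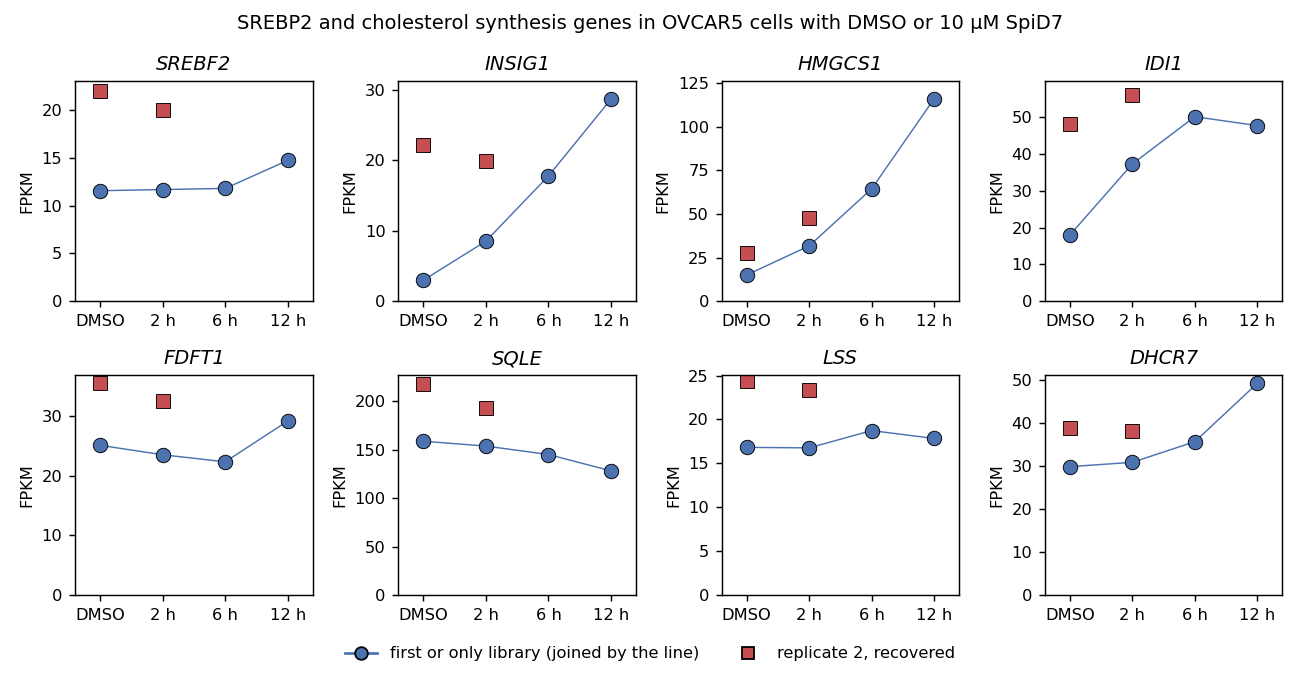
FPKM of the 8 genes (vertical axes, linear from 0, scaled per gene) in DMSO and after 2, 6 and 12 h of 10 μM SpiD7, with circles for the first or only library of a group, joined by a line, and squares for recovered replicate 2. HMGCS1 was higher at each later time and reached 116 FPKM, while the squares lie above the circles of the same group for all 8 genes.

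The regulators SREBF2 and INSIG1 were read against a wide gap between the vehicle libraries. SREBF2 was at 11.6 and 22.0 FPKM in DMSO, 11.7 and 20.0 FPKM at 2 h, 11.8 FPKM at 6 h and 14.7 FPKM at 12 h. Both single libraries at 6 h and 12 h lay between the DMSO libraries. At 12 h the log2 difference from the first DMSO library was 0.35 and that from replicate 2 was -0.57, so that its direction depends on the library used.

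INSIG1, which retains SCAP in the endoplasmic reticulum and is itself a target of SREBP2, had the widest gap of the 8 genes. Its level was 2.98 FPKM in the first DMSO library and 22.2 FPKM in replicate 2, a ratio of 7.44. It was at 8.52 and 19.9 FPKM at 2 h, 17.8 FPKM at 6 h and 28.6 FPKM at 12 h. The 12 h library was above both DMSO libraries, whereas the 6 h library lay between them. Against the first DMSO library the level was 9.60 times as high at 12 h, the largest ratio of the 8 genes in that comparison, but against replicate 2 it was 1.29 times as high. The corresponding log2 differences were 3.22 and 0.37 at 12 h, and 2.53 and -0.32 at 6 h.

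Downstream of HMG-CoA, IDI1 encodes the isomerase that interconverts the isoprene units. Its FPKM was 18.0 and 48.0 with DMSO and 37.2 and 55.9 after 2 h, and single values of 50.1 and 47.6 followed after 6 h and 12 h. The 6 h value was above both DMSO libraries, by 1.47 and 0.06 on the log2 scale, and the 12 h value lay between them, with differences of 1.40 and -0.01. IDI1 was therefore 2.65 times the first DMSO library at 12 h and 0.993 times replicate 2. The deposited locus of IDI1 on hg38, chr10:1018907-1049121, is also that of its paralog IDI2, which was at 1.75 to 4.62 FPKM in the 6 libraries.

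FDFT1 encodes squalene synthase, which commits the pathway to sterols, and its deposited hg38 locus was chr8:11795573-11839309. Levels of 25.1 and 35.6 FPKM in DMSO, 23.5 and 32.4 FPKM at 2 h, 22.3 FPKM at 6 h and 29.2 FPKM at 12 h were recorded. The 6 h library and the first 2 h library lay below both DMSO libraries, the 6 h library with log2 differences of -0.17 and -0.67, and the 12 h library lay between them.

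SQLE, squalene epoxidase, with its deposited hg38 locus at chr8:124998478-125022283, was the most abundant of the 8 genes in every library. It had 159 and 218 FPKM in DMSO, 154 and 194 FPKM at 2 h, 145 FPKM at 6 h and 128 FPKM at 12 h. The 6 h and 12 h libraries were both below the DMSO range. At 12 h the level was 0.807 times that of the first DMSO library and 0.587 times that of replicate 2, with log2 differences of -0.31 and -0.77, neither of which reached 2-fold.

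LSS, lanosterol synthase, closes the sterol rings. It was at 16.8 and 24.3 FPKM in DMSO, 16.8 and 23.3 FPKM at 2 h, 18.7 FPKM at 6 h and 17.8 FPKM at 12 h. Both later libraries lay between the DMSO libraries, with 12 h differences of 0.08 and -0.45.

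DHCR7 reduces 7-dehydrocholesterol to cholesterol in a last step of the pathway. Its levels were 29.9 and 38.9 FPKM in DMSO, 30.9 and 38.3 FPKM at 2 h, 35.7 FPKM at 6 h and 49.3 FPKM at 12 h. The 12 h library was above both DMSO libraries, by 0.72 and 0.34 on the log2 scale, and the 6 h library lay between them.

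Since FPKM is relative to transcript length, the levels of the 8 genes can also be ordered within a library. HMGCS1 ranked 6 of 8 in the first DMSO library and 5 in replicate 2, 3 in both 2 h libraries, and 2, next to SQLE, at 6 h and 12 h. INSIG1 ranked 8 in the first DMSO library, 7 in replicate 2 and 6 at 12 h, above LSS and SREBF2. SQLE and HMGCS1 stood at 159 against 15.1 FPKM in the first DMSO library, 218 against 27.9 FPKM in replicate 2 and 128 against 116 FPKM at 12 h. From 6 h to 12 h, HMGCS1 and INSIG1 had the largest log2 differences, 0.85 and 0.69, followed by DHCR7 with 0.47, FDFT1 with 0.38 and SREBF2 with 0.32, while SQLE, IDI1 and LSS had differences of -0.18, -0.07 and -0.07. Neighbours in this order cannot be separated, with 1 library at each time.

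Counted against each DMSO library separately, the 8 genes gave different pictures. Against the first DMSO library, 3 of 8, INSIG1, HMGCS1 and IDI1, were more than 2-fold higher at 6 h, where 6.28% of all genes tested were, and the same 3 at 12 h, where 8.21% were. Against replicate 2, 1 of 8, HMGCS1, was more than 2-fold higher at 6 h and again at 12 h, beside 7.76% and 7.01% of all genes. None of the 8 was more than 2-fold lower than the first DMSO library, beside 0.993% of all genes at 6 h and 4.03% at 12 h, or than replicate 2, beside 7.77% and 7.56%. At 6 h, 2 of 8 were above both DMSO libraries and 2 below both, beside 31.6% and 29.2% of all genes. At 12 h, 3 of 8 were above both and 1 below both, beside 30.1% and 35.6%. For the 8 genes, the median log2 difference of the 12 h library was 0.53 from the first DMSO library and -0.15 from replicate 2, while that of all genes tested was -0.06 and -0.0022. The 6 h and 12 h comparisons share both DMSO libraries.

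**Figure D2:**
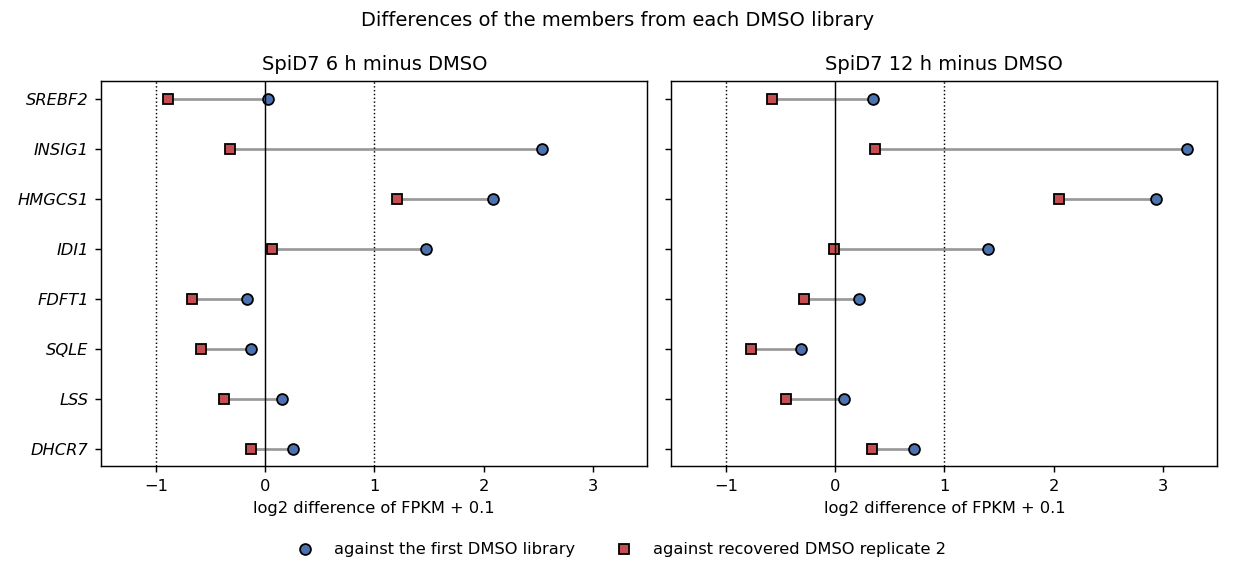
Log2 differences of FPKM + 0.1 (horizontal axes) between the SpiD7 library at 6 h (left) or 12 h (right) and the first DMSO library (circles) or recovered DMSO replicate 2 (squares), with dotted lines at a 2-fold difference. HMGCS1 has both points beyond the 2-fold line at both times, and INSIG1 and IDI1 only the circle.

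The difference between the vehicle libraries ran in 1 direction across the 8 genes. All 8 were higher in DMSO replicate 2 than in the first DMSO library, beside 45% of all genes tested, and all 8 were higher in the second 2 h library than in the first, beside 44.6%. INSIG1 and IDI1 were more than 2-fold higher in DMSO replicate 2, beside 8.72% of all genes. The log2 gap in DMSO ranged from 0.38 for DHCR7 to 2.85 for INSIG1 with a median of 0.71, and that at 2 h from 0.31 for DHCR7 to 1.21 for INSIG1. Of the 21 enzymes of cholesterol synthesis listed, 16 were higher in DMSO replicate 2, with a median gap of 0.42 and, without the listed members, 0.24. The share of MIR6723 and PECAM1 moved with the same libraries, as given above, and their part in these gaps was not tested. In RNA of bulk cultures, a different number of cells of a type and a different amount of RNA per cell cannot be told apart.

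**Figure D3:**
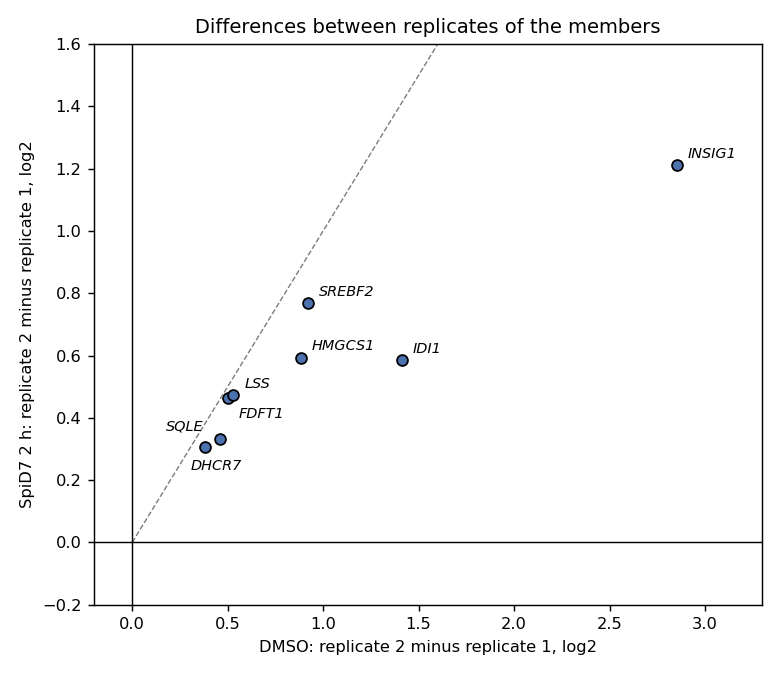
Log2 difference of FPKM + 0.1 between replicate 2 and replicate 1 in DMSO (horizontal axis) and at 2 h of SpiD7 (vertical axis, with a shorter range), 1 point per gene, with a dashed line where both are equal. All 8 points lie above 0 on both axes, and INSIG1 has the largest difference on each, at 2.85 and 1.21.

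At 2 h, the time with replicates, none of the 8 genes passed the test. By limma over 13287 genes, 3 genes changed with an adjusted p-value under 0.05 and more than 2-fold (0.0226%), all lower, and 378 had an unadjusted p-value under 0.05, with 0 of the 8 genes in either count. HMGCS1 had the largest log2 difference, 0.92 (SE 0.43, 2 libraries against 2, limma unadjusted p = 0.11, Benjamini-Hochberg adjusted p = 1). It was the only one of the 8 with both 2 h libraries above both DMSO libraries, a pattern seen in 13.7% of all genes tested. INSIG1 and IDI1 had differences of 0.66 (SE 1.19) and 0.63 (SE 0.60), with limma adjusted p = 1 for each, and their groups overlapped. By pairs of libraries, the INSIG1 difference was 1.48 between the first libraries and -0.16 between the second, and that of IDI1 was 1.05 and 0.22. The other 5 genes had differences between -0.11 and 0.01, with SEs of 0.24 to 0.48.

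None of the remaining 15 enzymes of the list passed 2-fold against both DMSO libraries at 6 h or 12 h. Their median 12 h difference from the first DMSO library was 0.20 and that from replicate 2 was 0.19, so that it did not change sign with the library as that of the 8 genes did. At 12 h, 10 of all 21 enzymes lay above both DMSO libraries and 4 below both, beside 30.1% and 35.6% of all genes tested. Within each list, the highest and lowest gene named here is the one with the extreme log2 difference between 12 h and the mean of both DMSO libraries, and such a rank can differ against one DMSO library alone. CYP51A1 and HSD17B7, named after their values were seen, were among the enzymes that, like HMGCS1, had both 2 h libraries above both DMSO libraries. HSD17B7, a sterol ketoreductase, was at 2.18 and 3.51 FPKM in DMSO, 3.98 and 7.02 FPKM at 2 h, 4.73 FPKM at 6 h and 4.32 FPKM at 12 h. The lowest enzyme by this difference was LBR, a lamin B receptor with sterol reductase activity, at 46.5 and 37.8 FPKM in DMSO and 23.9 FPKM at 12 h.

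HMGCS1 rose stepwise, with every library above all those of the time before from DMSO to 12 h. This order was found in 2.46% of all genes tested. Of the 69 listed genes tested, cell type markers included, 3 others shared it. These 3, chosen after their values were seen, were CYP51A1, NPC1 and GGPS1, and none of them reached 2-fold against either DMSO library at 12 h. CYP51A1, the lanosterol demethylase, was at 16.1 and 19.1 FPKM in DMSO, 19.8 and 22.6 FPKM at 2 h, 26.4 FPKM at 6 h and 30.2 FPKM at 12 h. NPC1, which exports cholesterol from lysosomes and had the highest difference from the DMSO mean in its list at 12 h, was at 5.47 and 5.90 FPKM in DMSO and 9.08 FPKM at 12 h. GGPS1, the geranylgeranyl diphosphate synthase and by the same measure the highest of the isoprenoid list, next to PDSS1 (0.33 and 0.32), was at 7.20 and 7.57 FPKM in DMSO and 9.32 FPKM at 12 h.

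**Figure D4:**
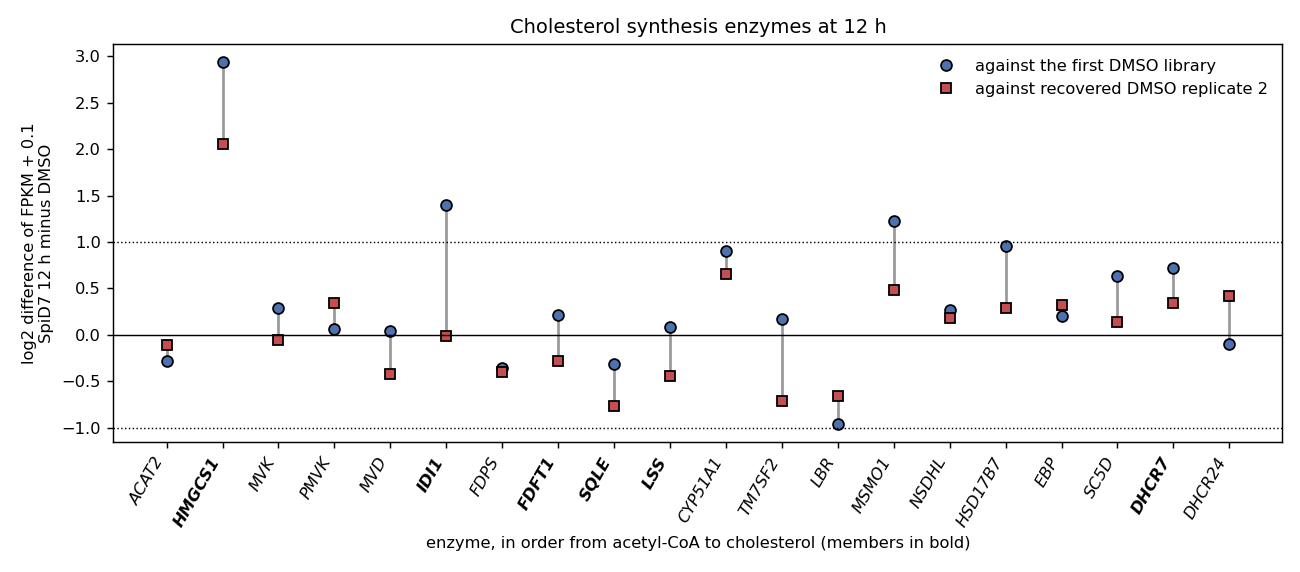
Log2 difference of FPKM + 0.1 between the 12 h library and the first DMSO library (circles) or recovered DMSO replicate 2 (squares) for enzymes of the list in pathway order, with the members in bold and dotted lines at a 2-fold difference. HMGCS1 stands alone with both points above the upper dotted line, and LBR has the lowest circle.

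Among the regulators of SREBP processing other than SREBF2 and INSIG1, 5 of 8 were below both DMSO libraries at 12 h and 1 above both, beside 35.6% and 30.1% of all genes tested. Their median differences were -0.33 and -0.52, and those of all genes -0.06 and -0.0022. SCAP, the escort protein, was at 18.2 and 19.1 FPKM in DMSO and 15.3 FPKM at 12 h. INSIG2, the paralog of INSIG1, was at 12.3 and 18.3 FPKM in DMSO and 9.26 FPKM at 12 h, where INSIG1 was at its highest. SREBF1, which encodes the factor of fatty acid synthesis genes, was at 21.0 and 29.0 FPKM in DMSO and 15.6 FPKM at 12 h. MBTPS2, the site-2 protease and the lowest of its list against the DMSO mean, was at 9.02 and 8.74 FPKM in DMSO and 5.30 FPKM at 12 h. No regulator passed 2-fold against both DMSO libraries.

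Among the genes of sterol uptake and transport, LIPA, the lysosomal acid lipase and the lowest of that list by its difference from the DMSO mean, was at 53.0 and 122 FPKM in DMSO and 57.6 FPKM at 12 h, between the DMSO libraries. MYLIP, of the efflux and esterification list, encodes a sterol-responsive ubiquitin ligase. It was the only listed gene besides HMGCS1 past 2-fold against both DMSO libraries. It was at 5.54 and 4.62 FPKM in DMSO, 13.0 and 14.3 FPKM at 2 h, 19.2 FPKM at 6 h and 13.3 FPKM at 12 h, with no overlap between SpiD7 and DMSO libraries. Of all genes tested, 13.7% had both 2 h libraries above both DMSO libraries, and 31.6% at 6 h and 30.1% at 12 h lay above both. These shares are for each time separately, and the share for all times together is not given here. Its 2 h difference of 1.41 had a Benjamini-Hochberg adjusted p = 1 by limma, with an unadjusted p = 0.00285. ABCG1, a sterol exporter and by its difference from the DMSO mean the lowest of the efflux list, at -0.374 against -0.370 for ABCA1, was at 2.07 and 3.60 FPKM in DMSO and 2.08 FPKM at 12 h. In fatty acid synthesis, 9 genes had median 12 h differences of -0.17 and 0.10, between SCD, at 57.9 and 55.7 FPKM in DMSO and 66.9 FPKM at 12 h, and ACACA, at 25.8 and 18.3 FPKM in DMSO and 15.2 FPKM at 12 h. PDSS2, of ubiquinone synthesis and the lowest of the isoprenoid list, was at 5.61 and 5.99 FPKM in DMSO and 3.23 FPKM at 12 h.

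The mean standardised profile of the 8 genes over the 6 libraries was closest to SREBF2, with a Pearson r of 0.9, and farthest from SQLE and HMGCS1, at 0.477 and 0.5. Each gene contributes to that mean, and the points share the replicate gaps described above, so these values are a description. The 5 genes outside the lists most like the profile were NARF, PERP, MYH14, FGD6 and GLRX, with r of 0.994 to 0.997. All 5 were higher in both recovered libraries than in the first library of the same group, beside 45% of all genes tested in DMSO and 44.6% at 2 h. They were chosen for likeness to a profile that is itself higher in those libraries, so this is no separate result. NARF, for example, was at 19.7 and 42.5 FPKM in DMSO and 23.8 and 42.9 FPKM at 2 h.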

How the data were processed

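The 6 RNA libraries of OVCAR5 cells were grouped by their sample labels. Per the methods and the submitters' processing notes, reads were trimmed with Trim Galore, aligned with TopHat, quantified with Cufflinks 2.1.1 and compared with Cuffdiff 2.1.1. The methods name GRCm38, while the deposited loci are those of hg38, and all 8 genes have a locus that overlaps their GENCODE gene. The authors deposited FPKM for both sides of 4 comparisons, with their fold changes, p-values and q-values, which were not used. No value column lacked a sample or group (0 columns).

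The 8 members and all gene lists were chosen with earlier results of these data known. Comparisons at 6 h and 12 h were scaled to the first by 0.972 and 0.994, from the DMSO library they share. In the columns named for replicate 2, 0 of 18195 and 0 of 18722 rows above 0 in the first library were at 0, and values had a lower limit at a share of 0.526 and 0.509 of it. They were read as means of both libraries, and replicate 2 was taken as the remainder after that share of the first library, divided by the share, on the assumption that both libraries had equal weight. This reading rests on the values alone.

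Rows of one symbol were summed. The 13287 genes whose mean FPKM reached 1 were compared at 2 h by limma 3.58.1 (R 4.3.3) on log2(FPKM + 0.1), called at a Benjamini-Hochberg adjusted p under 0.05 and over 2-fold. This scale understates changes of low genes. Single libraries at 6 h and 12 h were set against each DMSO library without a test. Genes named beside the members were those past 2-fold against both DMSO libraries at 6 h or 12 h, the highest and lowest of each list at 12 h, SREBF1, SCAP and INSIG2 by name, and the 5 genes most like the members' mean profile. The results of 2 further genes that the rule names are not reported here, and counts over the lists include them. Python 3.11.15 and pandas 2.3.3 were used for tables. Alternatives were other pseudocounts, filters, scalings, repeated symbols, a variance trend, a replicate block, the mean columns as single libraries and leaving out each replicate.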

Additional observations from a re-analysis of the deposited data

Results flagged for a closer look

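The differences from the DMSO mean had opposite signs between times for SCD, without a test of the difference itself. SCD was lower in both 2 h libraries (-0.174 on the log2 scale) and at 6 h (-0.11) and higher at 12 h (0.236), so that 12 h differed from 2 h by 0.41 and from 6 h by 0.345. These differences were not tested, since there is 1 library at 6 h and 1 at 12 h.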

How the results depend on the processing

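Of the recomputed values, 193 were marked as kept, 14, all of them counts of genes, as changed, and 13, all of them 2 h differences, as changed in sign. A 6 h or 12 h difference was kept if it moved by less than the standard deviation of the DMSO libraries, even with a change of sign. INSIG1 at 6 h, for example, went from 1.11 against the DMSO mean to -0.32 without the first DMSO library. Leaving out a DMSO library always moves a difference by less than that limit, so these cases cannot show stability. The number of genes called at 2 h, 3 as reported, was 0 with the replicate block, 1 with a pseudocount of 1, 6 with a pseudocount of 0.01, 0 without a filter on low values, 5 with an intensity trend, 110 with the mean columns taken as single libraries, and 0 to 21 when 1 library was left out. On the reading used here, each mean column contains the first library of its group. The 2 values of a group in that setting are therefore not separate libraries, and their spread is not that between libraries. The cause of the shifts in this number was not tested. At an unadjusted p under 0.05, limma gave 378 genes as reported, 1874 with the block and 1198 without the filter. Same-numbered DMSO and 2 h libraries deviated together (r = 0.369 over 13287 genes), but there are 2 pairs only and no label says what a number marks. With the replicate block, HMGCS1 had a Benjamini-Hochberg adjusted p = 0.329 by limma, with an unadjusted p = 0.00841, and none of the 8 genes passed.

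Without DMSO replicate 2, 3 of the 8 genes were past 2-fold at 6 h and 3 at 12 h, in place of 1 and 1, and without the first DMSO library 1 and 1. With the mean columns as single libraries, 2 genes were past 2-fold at 12 h, and 1 rather than 2 differed more than 2-fold between the DMSO columns. The DMSO mean column contains the first DMSO library on the reading used here, so the latter count does not check the gap between libraries. When 1 library was left out, with the lone library assumed to vary like the other group, the 2 h log2 difference ranged from -0.52 to 0.40 for SREBF2, -0.77 to 2.09 for INSIG1, 0.48 to 1.37 for HMGCS1, -0.34 to 0.12 for SQLE, -0.072 to 1.34 for IDI1, -0.36 to 0.14 for FDFT1, -0.30 to 0.23 for LSS and -0.18 to 0.20 for DHCR7. HMGCS1 was the only one of the 8 whose sign at 2 h held in all of these. That follows from both of its 2 h libraries lying above both DMSO libraries, so it is no separate check of stability. Median-ratio scaling turned the DHCR7 difference to -0.032. Depth is unknown, so no counting error can be given.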
